A study of Mus musculus with 9 samples.

Results

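The genes described here are 34 genes known for marking excitatory neurons of particular cortical layers. They were taken by gene name from a table of 54532 genes, and all 34 were found once each. By the layer each is best known for, 8 were set down as upper layer genes (layers 2 and 3), 3 as layer 4, 8 as layer 5, 11 as layer 6 and subplate, and 4 as genes of several layers. Their RNA was measured in brain cortex of B6 (C57BL6/J), C3H (C3H/HeJ) and WSB (WSB/EiJ) mice, with 3 males of 8 to 12 weeks per strain and 1 library per mouse. The mouse reference genome was read from B6, and C3H, like B6, belongs to the classical laboratory strains, whereas WSB was bred from wild mice. No allele was introduced and no treatment is named for any group, so the strains differ by their whole genomes, and each result below concerns 1 tissue, 1 sex and these inbred lines. The study used these cortices to look for genes that may bear on unequal stroke damage between strains, and the comparisons here ask whether RNA of layer genes differs between them.

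The neocortex is built of stacked layers whose excitatory neurons send axons to different places. Upper layer neurons connect cortical areas with each other, layer 4 neurons receive input from the thalamus, layer 5 holds the neurons that project to the brainstem and spinal cord, and layer 6 holds those that project back to the thalamus, with subplate neurons beneath. Each class is set by transcription factors such as Cux2, Rorb, Fezf2, Bcl11b and Tbr1, and the adult neurons keep expressing many of them. In RNA from whole tissue, fewer cells of a layer and less RNA of a gene per cell cannot be told apart.

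The libraries held 16317439 to 21562429 reads on genes, with 16317439 to 17784118 in WSB, the shallowest strain. The tissue carried its defining markers: 7 genes of excitatory cortical neurons summed to between 1941 and 2662 FPKM, with overlapping ranges in all strains. FPKM are fragments per kilobase of gene, scaled by a size value of each library that lay near its reads on genes. It also carried RNA of neighbouring tissue in unequal amounts. The summed level of 10 striatal markers ran from 202 to 828 FPKM over the B6 mice, from 182 to 492 over C3H and from 144 to 370 over WSB, and that of 6 choroid plexus markers ran from 64.7 in B6 replicate 3 to 764 in B6 replicate 2. Of the glial lists, 6 oligodendrocyte markers summed to 427 to 617 FPKM in WSB, below every B6 and C3H mouse at 734 to 989, and 5 microglia markers to 96.5 to 97.8 in WSB against 113 to 141 in the other mice. Other lists separated a pair of strains, with the third strain overlapping both. The interneuron markers summed to 628 to 764 FPKM in WSB and 587 to 609 in B6. Astrocyte markers summed to 306 to 354 in WSB and 360 to 394 in B6. Thalamus markers summed to 38.1 to 88.2 in C3H and 22.9 to 37.6 in B6. Activity-induced early genes summed to 194 to 235 in C3H and 241 to 301 in B6. Of the genes on these lists, none was at 0 in any mouse.

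Each layer gene was detected in every mouse. By strain mean, 12 of the 34 lay at 10 FPKM or more in all 3 strains and 6 lay under 2 FPKM in all 3. Lamp5, an upper layer gene of the lysosome-associated membrane protein family, had the highest mean over the 3 strain means, just above Pcp4, at 67.4 ± 9.71 FPKM in B6, 75.5 ± 7.79 in C3H and 79.9 ± 15.9 in WSB (SD, n = 3 each). In C3H alone, Pcp4 at 94.9 ± 40.2 and Lmo4 at 76.6 ± 5.52 (SD, n = 3 each) lay above it within this spread. Foxp2, a forkhead transcription factor of layer 6, had the lowest, at 1.10 ± 0.636 in B6, 0.954 ± 0.190 in C3H and 0.839 ± 0.147 in WSB (SD, n = 3 each). For 21 of the 34 genes the highest of the 9 mice lay less than 2 times above the lowest. The narrowest spread was that of Tbr1, at 1.27 times, and the widest that of Rspo1, at 5.84 times. Besides Rspo1, the spread was over 3 times for Pcp4, Syt6, Tshz2 and Foxp2.

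**Figure D1:**
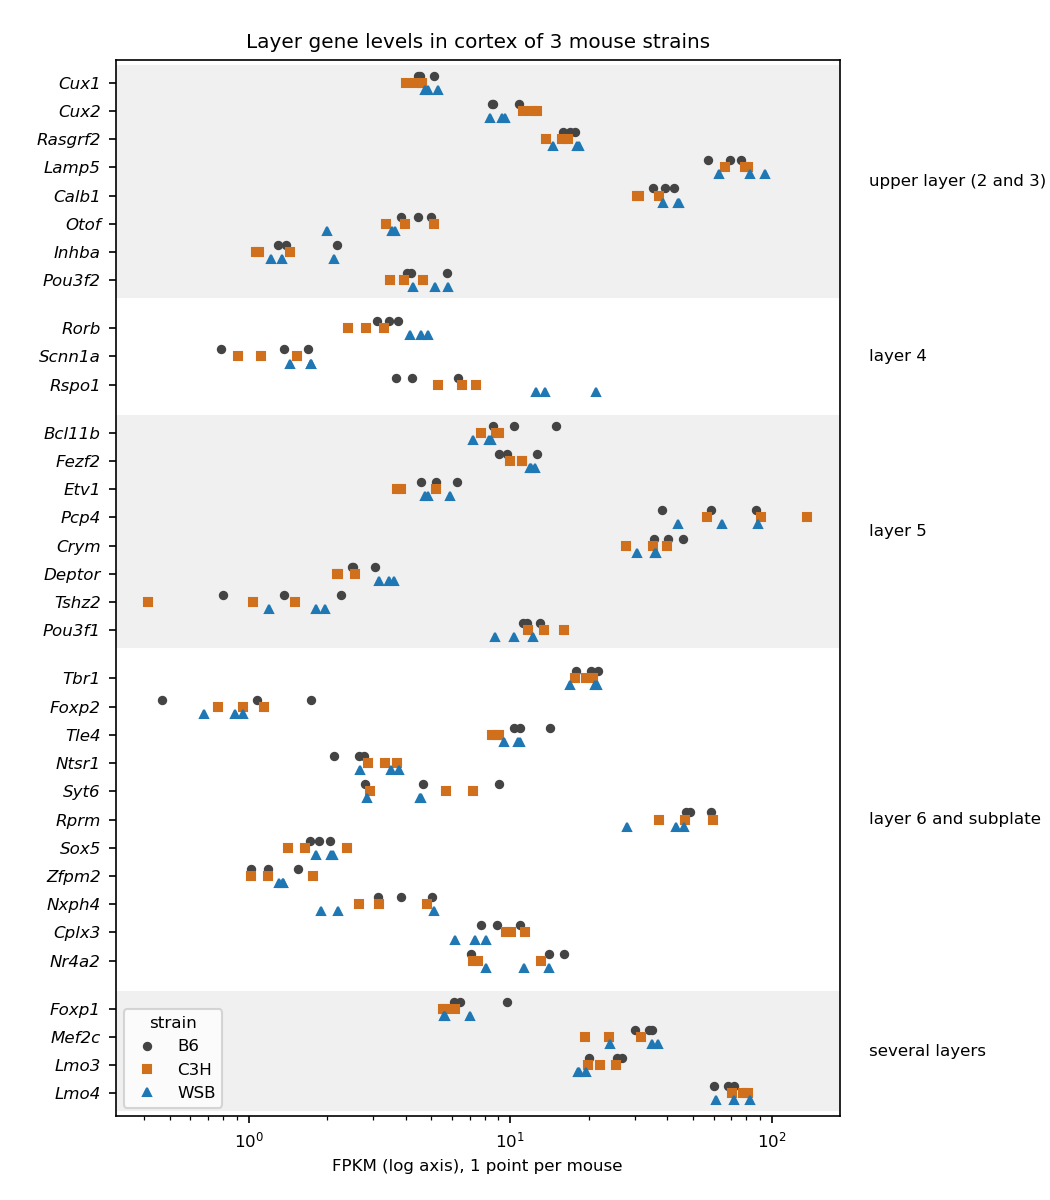
FPKM (log axis) of the 34 layer genes, grouped by layer, with 1 point per mouse and a colour and shape per strain (3 mice each). Most genes overlap between strains, and the 3 WSB points of Rspo1, at 12.5 to 21.3 FPKM, lie to the right of the other 6.

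Among the 3 layer 4 genes, Rspo1 was higher in WSB than in B6 and C3H, and Rorb was higher in WSB than in C3H. Rspo1 encodes R-spondin 1, a secreted protein that strengthens Wnt signalling, and Rorb encodes a nuclear receptor needed for the grouping of layer 4 neurons. Because both were higher in WSB than in C3H, the 250 bases before their annotated starts are shown, from RefSeq on GRCm38.p6, which is B6 sequence. The Rspo1 bases are chr4:124986180-124986429, plus strand, and the Rorb bases, of the start farthest upstream, are chr19:19111197-19111446, minus strand. Each is written 5′ to 3′ in the direction of the gene, and the capitals mark the letters TATAA.
Rspo1: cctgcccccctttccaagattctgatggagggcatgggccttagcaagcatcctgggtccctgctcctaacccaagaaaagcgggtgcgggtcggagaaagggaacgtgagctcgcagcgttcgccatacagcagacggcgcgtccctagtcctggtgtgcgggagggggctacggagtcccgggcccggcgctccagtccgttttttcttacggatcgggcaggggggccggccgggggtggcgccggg
Rorb: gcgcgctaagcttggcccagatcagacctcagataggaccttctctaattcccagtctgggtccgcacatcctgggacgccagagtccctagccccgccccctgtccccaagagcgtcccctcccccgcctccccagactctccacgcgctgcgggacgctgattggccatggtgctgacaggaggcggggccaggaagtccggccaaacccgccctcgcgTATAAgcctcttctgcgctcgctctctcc
The Rorb bases hold TATAA, which begins 29 bases before the start, and the Rspo1 bases hold it on neither strand. On either strand, 22.8% of all 32851 such windows hold these letters, and 9 of the 38 windows found for 25 of the layer genes (23.7%) do. AGGTCA, the core letters that ROR receptors bind, is in neither sequence, while 14.0% of all windows and 6 of the 38 hold it on 1 strand or the other.

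Rspo1 (ENSMUSG00000028871, chromosome 4, 124986430 to 125009099 on GRCm38, plus strand) was measured at 4.24, 3.65 and 6.34 FPKM in the 3 B6 mice. It stood at 5.32, 6.55 and 7.39 in C3H and at 13.6, 12.5 and 21.3 in WSB. The lowest WSB mouse lay above the highest mouse of both other strains, while B6 and C3H overlapped. These levels rest on 143 to 262 reads per B6 mouse, 192 to 278 per C3H mouse and 421 to 755 per WSB mouse. Rspo1 was 3.28-fold higher in WSB than in B6 on the log2(FPKM + 0.1) scale (log2 1.71, SE 0.25, 95% interval 1.12 to 2.31, adjusted p = 0.0095, limma with Benjamini-Hochberg adjustment over all genes tested). Against C3H it was 2.39-fold higher in WSB (log2 1.26, SE 0.21, 95% interval 0.76 to 1.76, limma adjusted p = 0.0171). Between C3H and B6 the difference did not pass (log2 0.46, 95% interval -0.04 to 0.95, limma adjusted p = 0.239). The call against B6 was held without any 1 of the 6 mice, with log2 values of 1.48 to 1.94. It was lost, at log2 1.64 and adjusted p = 0.0920 by limma, in a fit with the striatal marker level as a covariate and without B6 replicate 1. The call against C3H was lost without C3H replicate 1 (log2 1.13, limma adjusted p = 0.0788). The oligodendrocyte and microglia marker sums, lower in every WSB mouse, separate the same mice as Rspo1, and as Rorb and Deptor below. Their part in the results of these genes was not tested. An antisense gene, Gm12930, overlaps Rspo1 and reached at most 0.991 FPKM, and the sources used here do not say whether counting used strand. Cux2 likewise overlaps Gm15637 and Gm3970 (at most 0.253 and 1.38 FPKM) and Deptor overlaps Gm9920 (at most 0.0832 FPKM), so a few reads of these pairs cannot be told apart.

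Rorb (ENSMUSG00000036192, chromosome 19, 18930605 to 19111196, minus strand) was lower in level than Rspo1 and varied less. Its values were 3.11, 3.46 and 3.73 FPKM in B6, 2.81, 3.29 and 2.41 in C3H and 4.86, 4.13 and 4.58 in WSB. All 3 WSB mice lay above the other 6, and C3H overlapped B6. Rorb was 1.58-fold higher in WSB than in C3H (log2 0.66, SE 0.14, 95% interval 0.34 to 0.99, adjusted p = 0.0381, limma). Against B6 the difference was log2 0.39 (95% interval 0.13 to 0.65) and did not pass, at limma adjusted p = 0.101. The call against C3H was close to the threshold: it was held without C3H replicate 2 (log2 0.77, limma adjusted p = 0.0229) and lost without any of the other 5 mice. Its limma adjusted p was 0.133 without C3H replicate 1, 0.116 without C3H replicate 3, 0.133 without WSB replicate 1, 0.0720 without WSB replicate 2 and 0.109 without WSB replicate 3, with log2 values of 0.56 to 0.72. The calls over all genes moved the same way: 2002 without C3H replicate 2, where 1182 were called with all 6 mice. Without any 1 of the other mice they numbered 475 to 715. Fold changes of WSB over C3H fell with GC content over 12993 genes (Spearman -0.40, a description across genes, which are not independent), and the transcript of Rorb holds 41.6% G and C. With that trend removed Rorb was at log2 0.45 and passed (limma adjusted p = 0.0320).

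Scnn1a, a subunit of the epithelial sodium channel used as a layer 4 marker, was the third gene of this layer. It stood at 0.784, 1.37 and 1.69 FPKM in B6, 0.910, 1.11 and 1.53 in C3H and 1.73, 1.73 and 1.44 in WSB. The strains overlapped. Its difference was log2 0.39 for WSB over B6 (95% interval -0.24 to 1.01) and 0.46 for WSB over C3H (95% interval -0.03 to 0.95), and neither passed in limma, at adjusted p = 0.487 and 0.234. On 58 to 149 reads per mouse, both intervals hold 0 and also hold the difference measured for Rorb in the same comparison. Over the 3 genes, the mean log2(FPKM + 0.1) was 1.21, 1.43 and 1.82 in the B6 mice, 1.33, 1.59 and 1.65 in the C3H mice and 2.32, 2.21 and 2.42 in the WSB mice. This mean, a description that was not planned, did not overlap between WSB and the other strains, and Rspo1 is the gene with the largest share in it. Rspo1 and Rorb each already set the WSB mice apart, so the mean restates them and is no separate result about the layer. Of all genes tested, 26.0% did not overlap in WSB against B6 and 28.6% in WSB against C3H.

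**Figure D2:**
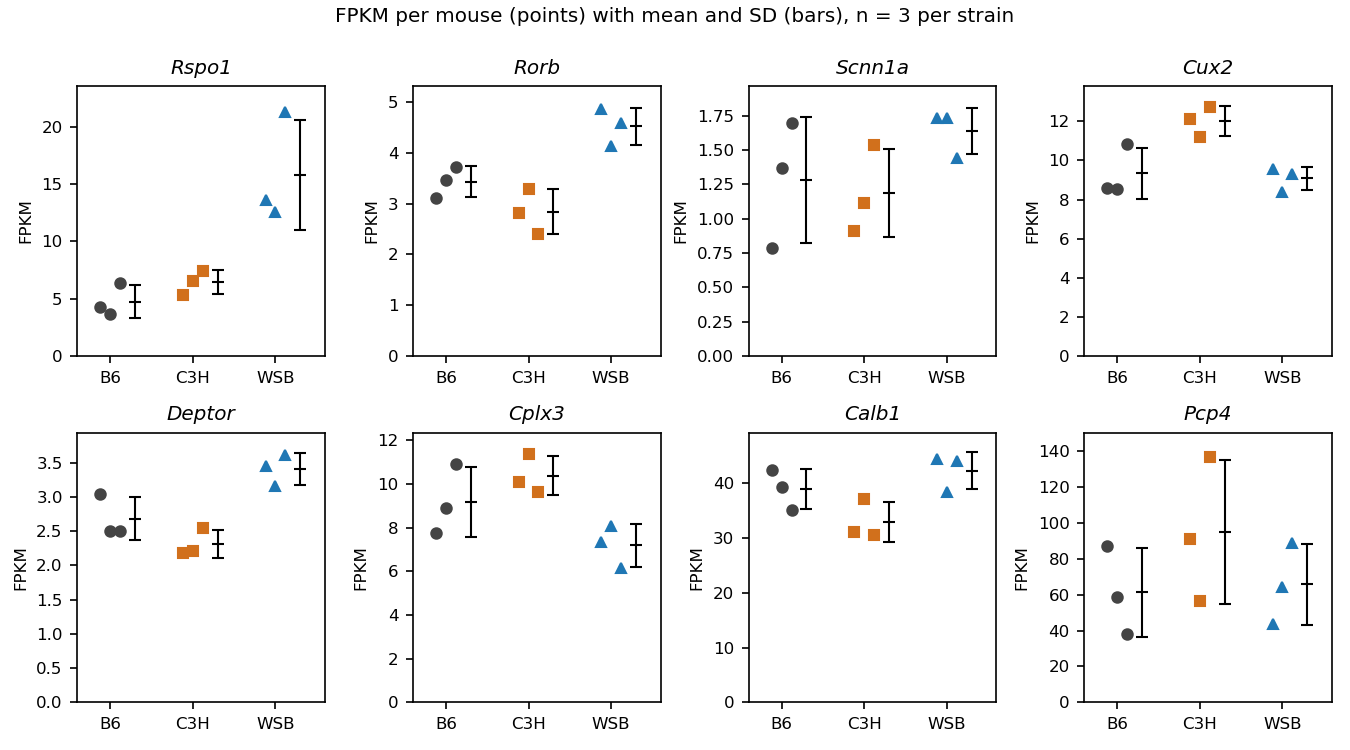
FPKM of 8 layer genes, with 1 point per mouse and bars at the mean and SD of each strain (n = 3), each panel starting at 0. The WSB points of Rspo1 (12.5 to 21.3) and Rorb (4.13 to 4.86) lie above all others, while Scnn1a and Pcp4 overlap.

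Among the 8 upper layer genes, Cux2 was lower in WSB than in C3H and no other member passed in any comparison. Cux2 (ENSMUSG00000042589, chromosome 5, 121856366 to 122050102, minus strand) encodes a homeodomain transcription factor that directs dendrite and synapse formation in upper layer neurons. It stood at 8.59, 8.57 and 10.8 FPKM in B6, 12.1, 11.2 and 12.7 in C3H and 9.55, 8.40 and 9.31 in WSB. All 3 C3H mice lay above the other 6, and WSB overlapped B6. Cux2 in WSB fell short of C3H by log2 -0.40 (SE 0.09, 95% interval -0.61 to -0.19, adjusted p = 0.0458, limma). C3H over B6 was log2 0.37 (95% interval 0.10 to 0.63) and did not pass (limma adjusted p = 0.115). The call was held without C3H replicate 2 (log2 -0.45, limma adjusted p = 0.0341) and lost without any of the others. The limma adjusted p was then 0.158 without C3H replicate 1, 0.165 without C3H replicate 3, 0.0989 without WSB replicate 1, 0.119 without WSB replicate 2 and 0.103 without WSB replicate 3. It was also lost with the GC trend removed (log2 -0.29, limma adjusted p = 0.0862), and the transcript of Cux2 holds 55.5% G and C.

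Cux1, the paralog of Cux2, stood at 4.70 ± 0.361 FPKM in B6, 4.32 ± 0.309 in C3H and 4.96 ± 0.291 in WSB (SD, n = 3 each), and passed in no comparison. The ratio of Cux2 to Cux1 within a mouse lay between 1.89 and 2.12 in B6, between 2.77 and 2.81 in C3H and between 1.74 and 2.01 in WSB. It is given as a description, chosen after the values were seen: the 3 C3H mice lay apart from the other 6 and close to each other. The ratios of Foxp1 to Foxp2 (5.38 to 13.0) and of Lmo4 to Lmo3 (2.25 to 4.50) overlapped between all strains. That of Pou3f1 to Pou3f2 lay between 2.28 and 2.77 in B6, 2.52 and 4.12 in C3H and 1.69 and 2.43 in WSB, so that WSB and C3H did not overlap.

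Calb1 encodes the calcium-binding protein calbindin, and its difference between WSB and C3H depended on whether the GC trend was removed. Its levels were 42.3, 39.2 and 35.1 FPKM in B6, 31.1, 37.1 and 30.5 in C3H and 44.4, 38.3 and 43.9 in WSB. WSB lay above C3H without overlap, and B6 overlapped both. The difference of WSB over C3H was log2 0.36 (95% interval 0.12 to 0.60, limma adjusted p = 0.0903). With the GC trend removed it was 0.001, and the transcript of Calb1, at 36.8% G and C, is the poorest in G and C of all the layer genes. It passed only without C3H replicate 2 (log2 0.45, limma adjusted p = 0.0318) and with voom weights (log2 0.36, adjusted p = 0.0472). Over all genes these settings called 2002 and 1757, where 1182 were called with all mice and no weights.

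The other upper layer genes overlapped in most comparisons and none passed. Rasgrf2, an exchange factor for small G proteins, was at 16.9 ± 0.879 FPKM in B6, 15.4 ± 1.47 in C3H and 17.0 ± 2.06 in WSB (SD, n = 3 each). Pou3f2, a POU-domain transcription factor of upper layer neurons, was at 4.66 ± 0.931, 4.02 ± 0.598 and 5.08 ± 0.761 FPKM in the same order. Inhba, a subunit of activin, was at 1.63 ± 0.486, 1.21 ± 0.208 and 1.56 ± 0.485 FPKM in the same order. Otof, which encodes the calcium sensor otoferlin, was lower in all 3 WSB mice (1.99 to 3.62 FPKM) than in all 3 B6 mice (3.84 to 4.97), with C3H between 3.36 and 5.13. Its difference of WSB over B6 was log2 -0.56 (95% interval -1.11 to -0.02, limma adjusted p = 0.232), so it did not pass.

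Among the 8 layer 5 genes, Deptor was higher in WSB than in C3H. Deptor (ENSMUSG00000022419, chromosome 15, 55112317 to 55259271, plus strand) encodes an inhibitor of the mTOR kinase. It stood at 3.05, 2.51 and 2.50 FPKM in B6, 2.19, 2.20 and 2.54 in C3H and 3.46, 3.16 and 3.61 in WSB. The WSB mice lay above the other 6, and B6 overlapped C3H. The difference of WSB over C3H was 1.46-fold (log2 0.54, SE 0.12, 95% interval 0.26 to 0.82, adjusted p = 0.0456, limma), and that of WSB over B6 was log2 0.34 (95% interval 0.05 to 0.63, limma adjusted p = 0.177). The call did not hold without any 1 of the mice: limma adjusted p was 0.156, 0.0598 and 0.0819 without C3H replicates 1, 2 and 3 and 0.141, 0.0803 and 0.130 without WSB replicates 1, 2 and 3, with log2 values of 0.50 to 0.61. With the GC trend removed it was log2 0.43 (limma adjusted p = 0.0923).

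**Figure D3:**
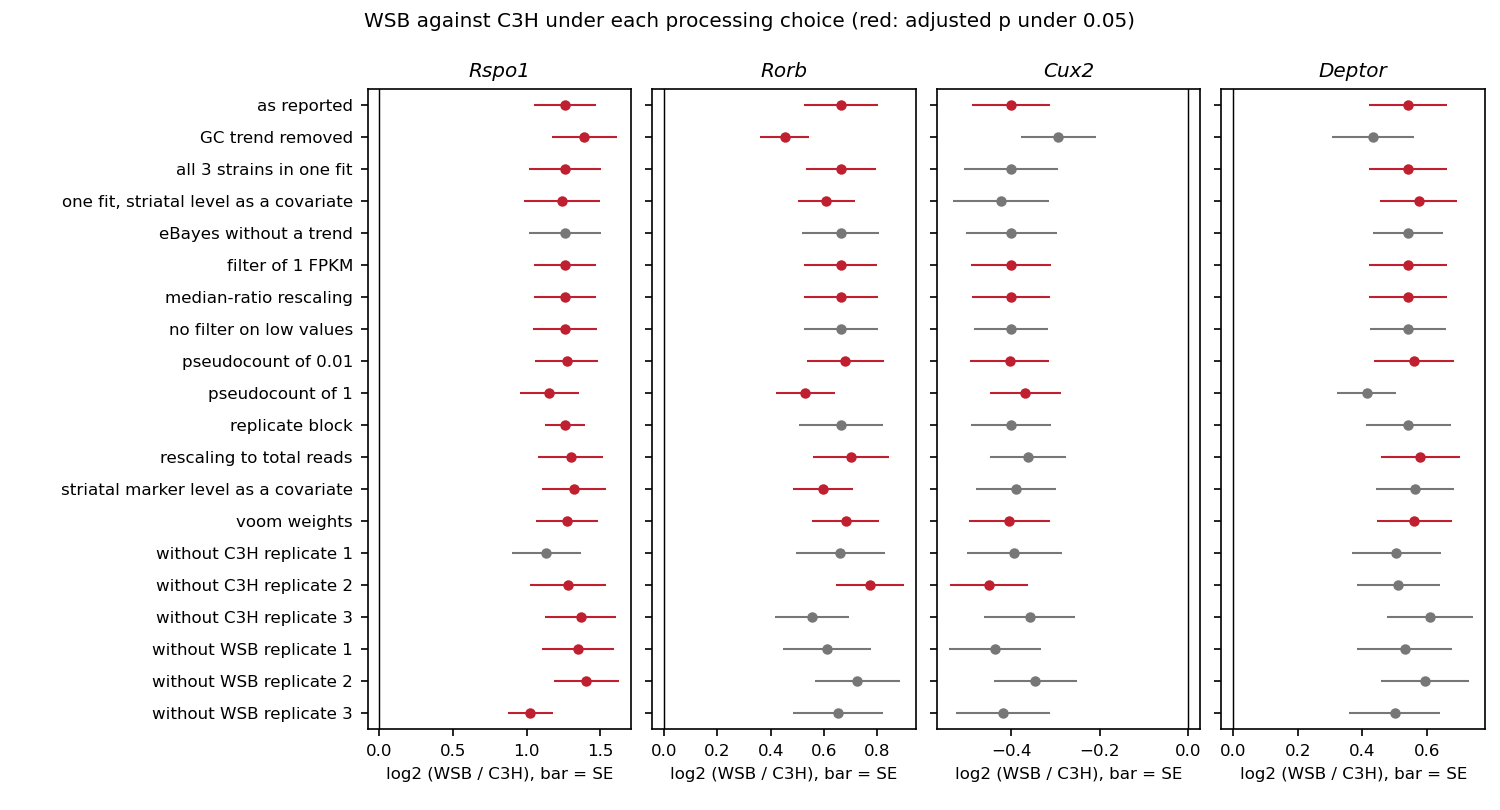
log2 fold change of WSB over C3H for the 4 layer genes that passed, as reported and under 19 alternatives, with bars of 1 SE and red where adjusted p is under 0.05. The sign is the same throughout, and Rspo1 passes in 17 of the 19, Rorb in 11, Deptor in 7 and Cux2 in 6.

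The transcription factors that define layer 5 projection neurons did not pass in any comparison. Fezf2, which sets the fate of neurons that project below the cortex, stood at 9.04, 9.73 and 12.7 FPKM in B6, 11.1, 11.1 and 9.99 in C3H and 11.9, 12.5 and 12.0 in WSB. WSB lay above C3H without overlap, by log2 0.18 (95% interval -0.004 to 0.36, limma adjusted p = 0.218). Bcl11b, also called Ctip2, acts downstream of Fezf2 in the cortex and is also strongly expressed by striatal neurons. It stood at 14.9, 10.3 and 8.57 FPKM in B6, 8.87, 7.72 and 9.08 in C3H and 7.23, 8.34 and 8.48 in WSB. All 3 WSB mice lay below the B6 mice, by log2 -0.45 (95% interval -0.90 to -0.004, limma adjusted p = 0.241), and the B6 mouse at 14.9 was the one with the most striatal marker RNA. Etv1, an ETS transcription factor, was at 5.35 ± 0.856 FPKM in B6, 4.25 ± 0.842 in C3H and 5.16 ± 0.629 in WSB (SD, n = 3 each). Pou3f1 was at 11.9 ± 0.998, 13.8 ± 2.21 and 10.4 ± 1.73 FPKM in the same order, and Crym, a thyroid hormone binding protein, at 40.5 ± 5.20, 34.2 ± 6.03 and 34.1 ± 3.03. Tshz2, a zinc finger gene of neurons that stay within the cortex, varied widely within each strain: in B6 from 0.797 to 2.26 FPKM, in C3H from 0.414 to 1.51 and in WSB from 1.20 to 1.97.

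Pcp4, a small calmodulin-binding protein of layer 5 neurons that is also abundant in striatum, passed only with the striatal marker level in the fit. Its levels were 87.0, 58.7 and 38.0 FPKM in B6, 91.2, 56.6 and 137 in C3H and 43.8, 64.4 and 88.8 in WSB. The strains overlapped, and within each strain the mice stood in the order of their striatal marker sums. Without a correction C3H over B6 was log2 0.62 (95% interval -0.25 to 1.49, limma adjusted p = 0.343) and WSB over B6 was 0.12 (95% interval -0.67 to 0.92, limma adjusted p = 0.889). The first value was 0.32 without B6 replicate 3, 0.31 without C3H replicate 3 and 0.95 without C3H replicate 2, and the second ran from -0.18 to 0.42 with a mouse left out. With the log2 striatal marker sum as a covariate, added after the values were seen, Pcp4 was higher than in B6 by log2 0.90 in C3H (limma adjusted p = 0.0106) and 0.59 in WSB (limma adjusted p = 0.0299). Without B6 replicate 1, which has the highest striatal sum, the corrected values were 0.86 for C3H (limma adjusted p = 0.0295) and 0.59 for WSB (limma adjusted p = 0.0723). Per 100 FPKM of striatal markers, Pcp4 amounted to 10.5, 13.0 and 18.8 FPKM in B6, 25.7, 31.1 and 27.8 in C3H and 30.5, 21.7 and 24.0 in WSB. All B6 mice lay below the mice of both other strains on that scale, which takes the whole of Pcp4 as if it scaled with the striatal sum.

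Among the 11 layer 6 and subplate genes, 0 passed limma in any comparison. An unadjusted p under 0.05 was reached by 0 in WSB against B6, where 20.4% of all genes tested had one, by 2 in C3H against B6 (24.1% of all genes) and by 2 in WSB against C3H (23.8% of all genes). With voom weights 0, 0 and 1 passed in the same order, where 7.43%, 7.22% and 8.53% of all genes did, the 1 being Cplx3. Tbr1, the T-box transcription factor of neurons that project to the thalamus, had the smallest ratio of highest to lowest mouse among the layer genes, although Cux1 varied less within each strain. It stood at 21.6, 17.9 and 20.3 FPKM in B6, 20.7, 19.5 and 17.7 in C3H and 21.2, 17.0 and 21.6 in WSB. All 3 strains overlapped, and the 95% intervals of its differences lay within log2 -0.28 to 0.30 in the 3 comparisons. Foxp2 stood at 1.74, 1.08 and 0.468 FPKM in B6, 1.14, 0.764 and 0.955 in C3H and 0.673, 0.890 and 0.954 in WSB. In B6 and in WSB, but not in C3H, it followed the striatal marker order. The interval of Foxp2 for WSB over B6, -1.17 to 0.76 on the log2 scale, is too wide to place it. Tle4, a corepressor of corticothalamic neurons, stood at 14.2, 10.3 and 10.9 FPKM in B6, 9.11, 8.93 and 8.54 in C3H and 10.8, 9.50 and 10.9 in WSB. The C3H mice lay below all others, by log2 -0.40 against B6 (95% interval -0.69 to -0.10, limma adjusted p = 0.122) and with WSB over C3H at 0.22 (95% interval 0.02 to 0.43, limma adjusted p = 0.174).

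Cplx3, a complexin of subplate and some retinal neurons that regulates vesicle release, came closest to the threshold in this group. It stood at 7.74, 8.92 and 10.9 FPKM in B6, 10.1, 11.4 and 9.65 in C3H and 7.33, 8.10 and 6.14 in WSB. The WSB mice lay below the C3H mice without overlap, and below B6 with an overlap of the ranges. WSB over C3H was log2 -0.53 (SE 0.12, 95% interval -0.82 to -0.24, limma adjusted p = 0.0520), and WSB over B6 was -0.35 (95% interval -0.70 to 0.01, limma adjusted p = 0.257). Of these, WSB over B6 passed in 1 of 20 alternatives, one fit of all strains with the striatal covariate (log2 -0.49, limma adjusted p = 0.0467). WSB over C3H passed in 4 of 19 alternatives, by limma at adjusted p = 0.0136 to 0.0434: with a minimum mean of 1 FPKM, with voom weights and in both fits with the striatal covariate.

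The remaining layer 6 and subplate genes overlapped between strains in most comparisons. Ntsr1, the neurotensin receptor that marks corticothalamic neurons, was lower in all B6 mice (2.12 to 2.77 FPKM) than in all C3H mice (2.87 to 3.69), with WSB at 2.67 to 3.76, and the difference of C3H over B6 was log2 0.38 (95% interval 0.03 to 0.73, limma adjusted p = 0.181). Rprm, a gene named for its role in cell cycle arrest, was lower in all WSB mice (28.0 to 46.2 FPKM) than in all B6 mice (47.1 to 58.7), by log2 -0.43 (95% interval -0.87 to 0.02, limma adjusted p = 0.261). Neither passed. Sox5 and Zfpm2, transcriptional regulators of early-born deep neurons, were within 1.42 to 2.39 FPKM and 1.02 to 1.76 FPKM over the 9 mice. Nxph4, a neurexophilin of subplate cells, ran from 1.90 to 5.14 FPKM on 58 to 170 reads per mouse. Syt6, a synaptotagmin of corticothalamic neurons, ran from 2.79 to 9.04 FPKM. Nr4a2, a nuclear receptor of subplate neurons that neuronal activity also induces, ran from 7.09 to 16.0 FPKM, with its highest and lowest value both in B6.

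Of the 4 genes of several layers, 0 passed limma, 1 in each comparison had an unadjusted p under 0.05 (20.4% to 24.1% of all genes did), and 0 passed with voom weights. Lmo3, a LIM-only regulator, stood at 25.6, 26.9 and 20.0 FPKM in B6, 25.4, 19.9 and 22.0 in C3H and 19.5, 18.3 and 18.4 in WSB. The WSB mice lay below all 6 others, by log2 -0.35 against B6 (95% interval -0.62 to -0.08, limma adjusted p = 0.138). Without B6 replicate 3 this difference was -0.48 and passed (limma adjusted p = 0.0284). Mef2c, a transcription factor that shapes synapse number, was at 33.0 ± 2.63 FPKM in B6, 24.9 ± 6.20 in C3H and 32.0 ± 6.87 in WSB (SD, n = 3 each). C3H over B6 was log2 -0.43 (95% interval -0.83 to -0.04, limma adjusted p = 0.181), which passed without C3H replicate 2 (log2 -0.61, limma adjusted p = 0.0303), was -0.26 without C3H replicate 3 (limma adjusted p = 0.400) and was -0.16 with the GC trend removed. Over all genes, 2301 were called in C3H against B6 without C3H replicate 2, where 956 were called with all mice. Foxp1 was at 7.43 ± 2.02, 5.78 ± 0.326 and 6.10 ± 0.831 FPKM in B6, C3H and WSB (SD, n = 3 each), and Lmo4 at 66.8 ± 5.69, 76.6 ± 5.52 and 72.1 ± 10.7.

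The counts of layer genes are set here beside the shares of all genes tested, as a description with no test of the list. Both comparisons with B6 share the 3 B6 mice. In WSB against B6, 1 of the 34 layer genes passed limma, Rspo1, where 5.9% of 20746 genes tested did. The mice of the 2 strains did not overlap for 7 layer genes, where 26.0% of all genes tested did not overlap. The median log2 difference was -0.02 for the layer genes and 0.00 for all genes. In C3H against B6, 0 layer genes passed limma, where 4.64% of 20602 genes did, and 4 had an unadjusted p under 0.05, where 24.1% of all genes did. With voom weights the count was also 0. The strains did not overlap for 3 layer genes (28.9% of all genes), and the median was -0.11 against -0.00 for all genes. In WSB against C3H, 4 layer genes passed, where 5.74% of 20607 genes did: 3 were higher in WSB, where 2.61% of all genes were called higher, and 1 was lower, where 3.13% were. The strains did not overlap for 10 (28.6% of all genes), and the median was 0.07 against 0.01. The half-width of the 95% interval had a median of log2 0.38, 0.39 and 0.36 over the layer genes in the 3 comparisons, so that most differences under this size lay within the error of 3 mice per strain.

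**Figure D4:**
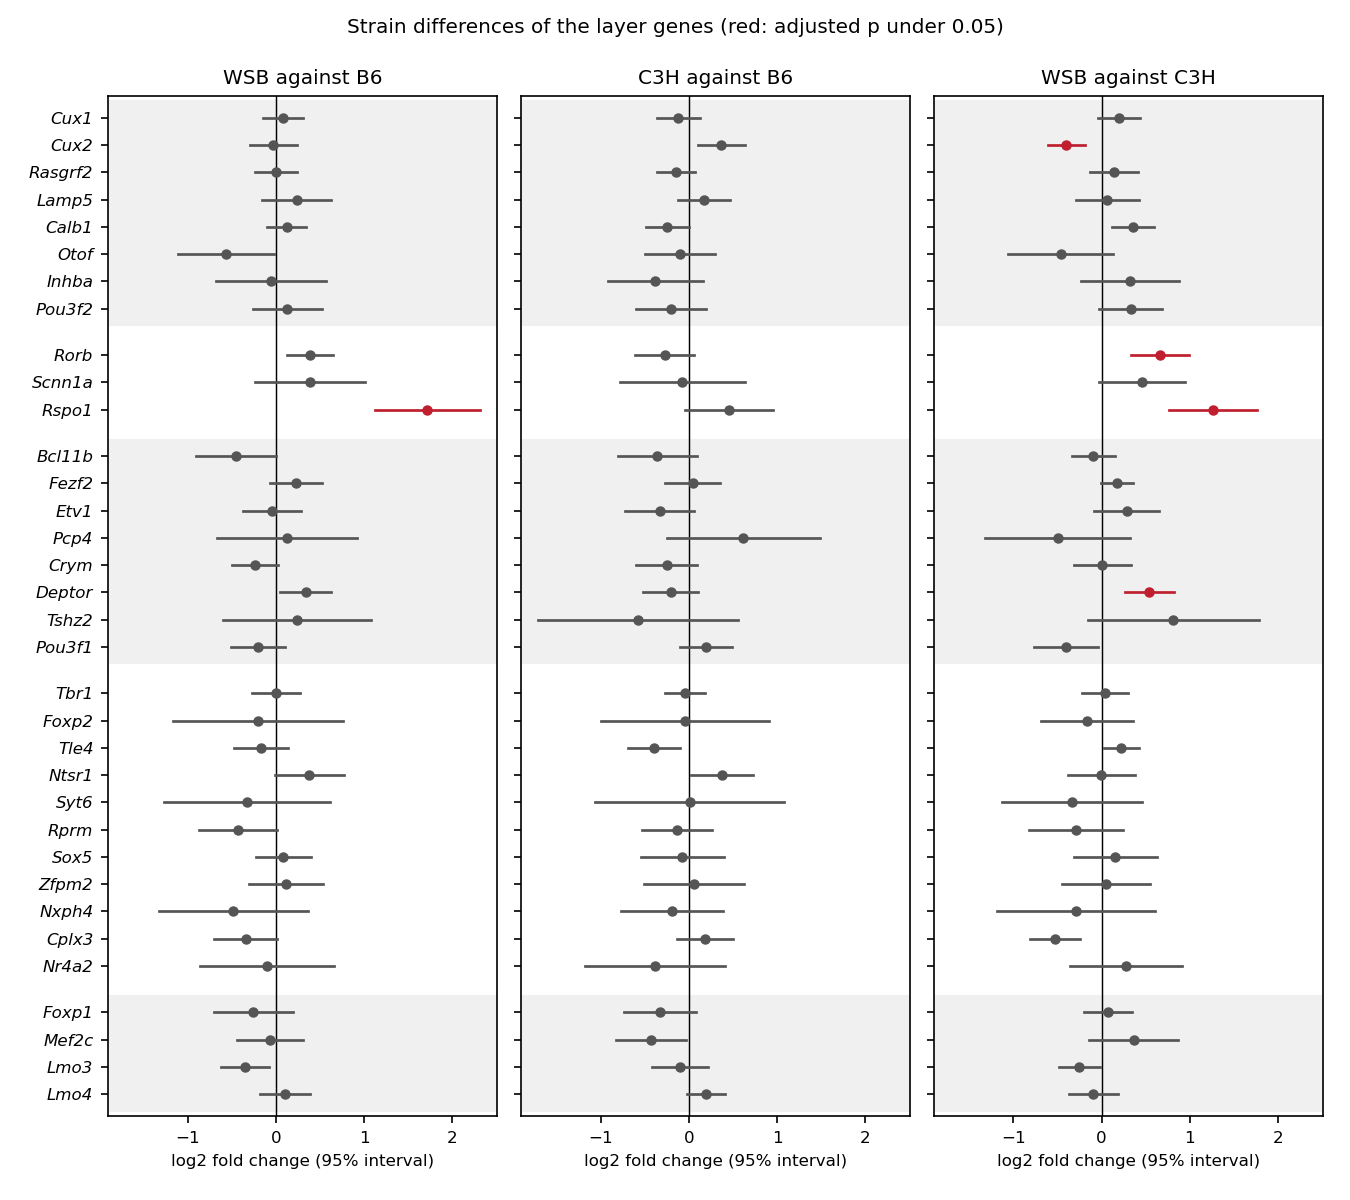
log2 fold change with its 95% interval for the 34 layer genes in WSB against B6, C3H against B6 and WSB against C3H (3 mice per strain), in red where limma's adjusted p is under 0.05. Rspo1 is red in both WSB panels, Rorb, Cux2 and Deptor in that of WSB against C3H, and no gene in that of C3H against B6.

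By layer, the differences of WSB over B6 were above 0 for 3 of 3 layer 4 genes (median log2 0.39), 4 of 8 upper layer genes (0.04), 4 of 8 layer 5 genes (0.04), 3 of 11 layer 6 and subplate genes (-0.17) and 1 of 4 genes of several layers (-0.16). For WSB over C3H they were above 0 for 3 of 3 layer 4 genes (median 0.66), 6 of 8 upper layer genes (0.17), 5 of 8 layer 5 genes (0.09), 5 of 11 layer 6 and subplate genes (-0.00) and 2 of 4 genes of several layers (-0.01). Over all genes tested, the differences were above 0 for 10436 of 20746 in WSB over B6 and for 10527 of 20607 in WSB over C3H. For C3H over B6 the medians ran from -0.23 in layer 5 to -0.04 in layer 6 and subplate. Fold changes of C3H over B6 rose with GC content over 12989 genes (Spearman 0.48, a description across genes, which are not independent). Fold changes of WSB over C3H fell with it (Spearman -0.40), and those of WSB over B6 rose less with it (Spearman 0.11). All these medians are given without removal of the GC trends. The mean log2(FPKM + 0.1) of the 19 deep layer genes minus that of the 8 upper layer genes was -0.44 ± 0.09 in B6, -0.44 ± 0.02 in C3H and -0.50 ± 0.19 in WSB (SD, n = 3 each). The strains overlapped in this balance of deep to upper layers, and the WSB mice alone covered -0.64 to -0.29.

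Of 50 further genes known from the same layers, 49 were in the table and 48 were tested in each comparison. In WSB against B6, 0 were called higher and 1 lower, and in WSB against C3H also 0 and 1, in both cases Rbp4, where 5.9% and 5.74% of all genes tested were called. Rbp4, a retinol-binding protein whose driver lines label layer 5, stood at 13.0, 11.1 and 13.6 FPKM in B6, 17.3, 13.0 and 14.3 in C3H and 8.90, 8.28 and 6.75 in WSB. WSB lay below both others without overlap, by log2 -0.65 against B6 (SE 0.13, limma adjusted p = 0.0282) and -0.89 against C3H (SE 0.14, limma adjusted p = 0.0137). In C3H against B6, where 4.64% of all genes were called, 0 were higher and 2 lower: Endou, a layer 4 gene, by log2 -1.19 (SE 0.26, limma adjusted p = 0.0461) and Sema3e, a semaphorin of deep layers, by -0.76 (SE 0.16, limma adjusted p = 0.0394). Endou, on 18 to 86 reads per mouse, stood at 0.793, 1.35 and 1.47 FPKM in B6 and 0.431, 0.489 and 0.451 in C3H. In WSB it stood at 0.394, 0.652 and 0.379, below all B6 mice, and that difference did not pass in limma. Of the 6 further layer 4 genes tested, limma called 0 in WSB against B6 (median log2 -0.21, 2 with an unadjusted p under 0.05, where 20.4% of all genes had one, and 1 called with voom weights, where 7.43% were). In WSB against C3H it called 0 (median 0.02), with 0 at an unadjusted p under 0.05 and 0 with voom weights, where 23.8% and 8.53% of all genes were.

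Several layer genes are also expressed by striatal neurons, and their levels are set here beside the striatal marker sum of each mouse. B6 replicate 1, with the highest striatal sum at 828 FPKM, was also the highest of the 9 mice for Bcl11b (14.9 FPKM), Foxp1 (9.76), Foxp2 (1.74), Tle4 (14.2) and Syt6 (9.04). Foxp1 and Syt6 were chosen for this after their values were seen. WSB replicate 1, with the lowest sum at 144 FPKM, was the lowest of the 9 for Bcl11b (7.23 FPKM). Within each strain the mice stood in the order of their striatal sums for Bcl11b, as they did for Pcp4. For Syt6 this held in B6 and C3H but not in WSB. For Tle4 and Foxp1 the high value was that of B6 replicate 1 alone: C3H replicate 3, second in the order at 492 FPKM, had the lowest Tle4 of the 9 (8.54) and a Foxp1 of 5.64, and WSB replicate 1 had a Tle4 of 10.8. All 10 striatal markers had log2 differences under 0 in both comparisons with B6, with medians of -0.74 for WSB and -0.42 for C3H, and 0 passed in limma, at an unadjusted p under 0.05 or with voom weights. With the striatal sum as a covariate, 2 layer genes passed in WSB against B6 (Rspo1 and Pcp4), 1 in C3H against B6 (Pcp4) and 3 in WSB against C3H. Of all genes tested, 755 of 20746, 662 of 20602 and 1071 of 20607 passed in those fits, in the same order. The part of striatal RNA in the values of Bcl11b, Foxp1, Foxp2, Tle4 and Syt6 was otherwise not tested.

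**Figure D5:**
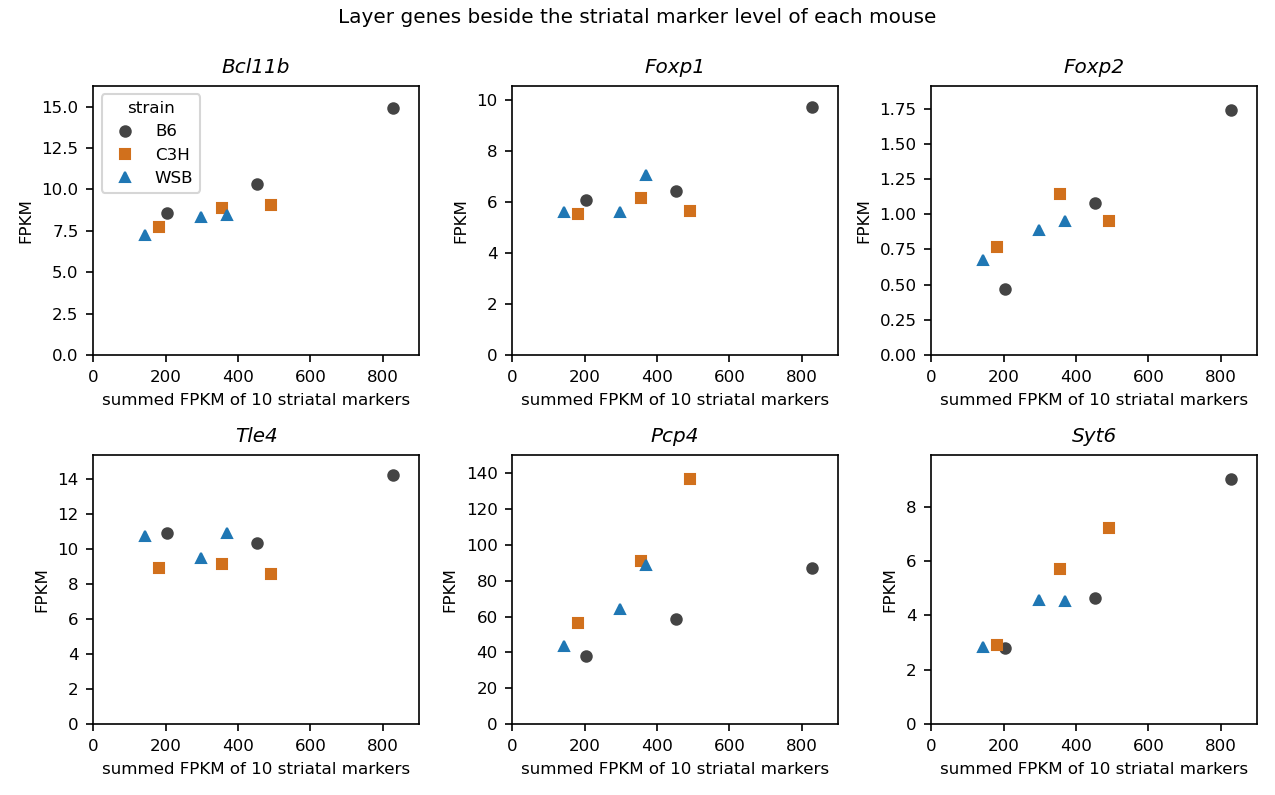
FPKM of 6 layer genes (vertical axes, from 0) against the summed FPKM of 10 striatal markers, with 1 point per mouse and a colour and shape per strain. B6 replicate 1, at 828 FPKM of striatal markers, is the highest point in every panel except Pcp4, where C3H replicate 3 is highest at 137.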

How the data were processed

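Brain cortex of 9 male mice, 3 per strain, was sequenced from both fragment ends at 150 bp per read. Adapters were removed by the authors with Cutadapt, HTSeq gave the reads per gene, and FPKM per gene and mouse were deposited. The submitters' processing notes name STAR, HTSeq and DESeq2. The versions, the annotation release and the strand setting are not given in the sources used here. The deposited FPKM values multiplied by gene length came out as whole multiples of a step particular to each library (100% of values, tolerance 0.001), which gave the reads behind each value. The library size that each step implied was not the same as the reads on genes. It was 21310236 against 21562429 reads in B6 replicate 3 and 18267583 against 17784118 in WSB replicate 3. Gene coordinates were those of the deposited table, and those of 33 of the 34 layer genes were the same in GENCODE M21 (GRCm38).

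Because the values are FPKM and not counts, 2 strains at a time were compared on log2(FPKM + 0.1) by the two-sided moderated test of limma 3.58.1 (R 4.3.3), with the prior variance following the mean level. Genes averaging at least 0.1 FPKM over those 6 mice were tested together, adjusted by Benjamini-Hochberg and called under 0.05. All 34 layer genes passed this minimum in each comparison. Each label names its own mouse, so the spread is between animals. Libraries of 1 strain differed by more than sampling noise in every pair (chi-square per gene 7.29 to 22.0). The fits were also run on simulated data, with variability between mice set alike for every gene and no tissue differences. Those settings differ from these libraries, and no result here rests on them.

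The layer genes, the lists and the tests were chosen with earlier results of these data known. Every layer gene was named with its level. Values in each mouse were given by rule for the genes called, for Cux2, Rorb, Fezf2, Bcl11b, Tbr1 and Foxp2, and for the smallest unadjusted p up to 12 genes. Those of Scnn1a and Pcp4, and the mentions of Syt6 and Foxp1 beside striatal markers, were chosen after the values were seen. Genes of other lists were named where called. The alternatives were other pseudocounts (1 and 0.01), no minimum and a minimum of 1 FPKM, median-ratio rescaling and rescaling to total reads, one fit of all 3 strains, the replicate number as a block, voom weights, limma without a variance trend, removal of the GC trend (lowess, span 0.3), each mouse left out and, after the values were seen, the striatal marker covariate. Replicate numbers did not pair the mice: deviations from the strain means correlated at -0.06 to 0.05 between same-numbered mice. Promoter sequences came from RefSeq (GRCm38.p6). Protein sequences were not used here.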

Additional observations from a re-analysis of the deposited data

Results flagged for a closer look

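For 4 layer genes the effect of WSB against B6 differed from that of C3H against B6, by the test of the difference itself, which is the comparison of WSB with C3H. The effect of WSB minus that of C3H was log2 1.26 for Rspo1 (limma adjusted p = 0.0171, higher in 3 of 3 WSB mice than in any C3H mouse), 0.66 for Rorb (limma adjusted p = 0.0381, likewise in 3 of 3) and 0.54 for Deptor (limma adjusted p = 0.0456, likewise in 3 of 3). It was -0.40 for Cux2 (limma adjusted p = 0.0458, lower in 3 of 3). Of these, Rspo1 also passed in WSB against B6, and the other three passed in neither comparison with B6.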

How the results depend on the processing

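Rspo1 kept its direction throughout and its call in 19 of 20 alternatives against B6 (log2 1.48 to 1.94) and 17 of 19 against C3H (1.03 to 1.41, not called in limma without a trend, adjusted p = 0.0567). The count of layer genes called moved more. In WSB against B6, where it was 1, it was 2 with voom weights (Rorb added, adjusted p = 0.0378) and 2 with the striatal covariate. It was 3 with that covariate in one fit of all strains (Cplx3 being the third), 0 with it and without B6 replicate 1, and 1 to 2 with a mouse left out. Over all genes, 1224 of 20746 were called as reported. In the same order these settings called 1541, 755, 1076 of 20768, 471 of 20762, and 651 to 825 with a mouse left out. In C3H against B6, where it was 0, it was 1 in each of the 3 fits with the covariate (Pcp4) and 0 to 1 with a mouse left out. Over all genes, 956 of 20602 were called as reported and 437 to 1087 in the fits with the covariate. With a mouse left out 498 to 2301 were called, 2301 being without C3H replicate 2. In WSB against C3H, where it was 4, it was 6 with voom weights, 5 with a minimum of 1 FPKM and 1 with no minimum level. It was 0 without a trend, 2 after removal of the GC trend and 0 to 4 with a mouse left out, 0 being without C3H replicate 1. Over all genes, 1182 of 20607 were called as reported. The calls were 1757 with voom weights, 1019 of 13011 with a minimum of 1 FPKM and 920 of 29864 with no minimum. They were 897 without a trend and 1424 after removal of the GC trend. Without C3H replicate 1 they were 475, and without C3H replicate 2 they were 2002. Mice were not paired by their replicate numbers. With the replicate number as a block the count was 1 in WSB against B6, 0 in C3H against B6 and 1 in WSB against C3H, Rspo1 being the one kept, and the counts over all genes were 754, 480 and 531. The difference of Pcp4 between WSB and B6, 0.12, lay between -0.18 and 0.42 with a mouse left out and turned to -0.18 without B6 replicate 3 and to -0.12 without WSB replicate 3. The sign of the difference changed in at least 1 alternative for 14, 12 and 8 of the 34 layer genes in WSB against B6, C3H against B6 and WSB against C3H, none of them with a difference over log2 0.33. Except where stated, the cause was not tested. Reads on genes number 58 to 170 per mouse for Nxph4 and 58 to 149 for Scnn1a, which limits both.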
